A study of Petromyzon marinus with 4 samples.

Results

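Kinesins, dyneins and tubulins are the motors and building blocks of the microtubule cytoskeleton. The genes described here are the 32 of 21967 listed features whose symbol in the deposited feature lists is that of a numbered kinesin (KIF), a cytoplasmic dynein subunit or light chain (DYNC, DYNL), an axonemal dynein subunit (DNAH, DNAI, DNAL) or a tubulin or tubulin-complex gene (TUBA to TUBE, TUBG). They were picked by symbol alone, but this choice was made with earlier results of these data known. By role they are 4 mitotic motors, 19 ciliary motors (12 axonemal dynein genes, 6 kinesins of cilia and 1 intraflagellar dynein), 2 cytoplasmic dynein light chains, 5 genes of gamma tubulin and its ring complex, and 2 genes of delta and epsilon tubulin. Where no symbol was assigned the lists give a LOC number, as for 13987 features, so lamprey kinesin, dynein and tubulin genes that have only such a number are not among the 32, and no alpha or beta tubulin is among them. In the gene reference used here, LOC116941381 has the symbol KIF20B, a mitotic motor. LOC116939208 has the symbol DNAH10 and LOC116947585 the symbol KIF21A. Levels of KIF20B are given below, apart from those of the 32.

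The RNA came from gonads of wild-caught, wildtype sea lampreys (Petromyzon marinus) of unknown age, which were dissociated, enriched for live cells by flow sorting and captured as single cells with a particle-templated 3′ kit. The 4 libraries were a pair of biological replicates from larvae, whose gonads were undifferentiated and whose sex was not determined, 1 library from a female and 1 from a male transformer. Transformers are lampreys at metamorphosis, labelled here as sex-determined. How many animals went into a library is not given in the sources used here, and each sex of transformer had 1 library, so sex differences have no replicate check.

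A kinesin walks along a microtubule, in most families towards its plus end, and a dynein walks towards the minus end. In a dividing cell, mitotic kinesins build the spindle, move chromosomes and help the daughter cells separate. In a motile cilium or a sperm flagellum, axonemal dyneins form rows of inner and outer arms whose stroke slides the microtubule doublets past each other, while kinesins and a dedicated dynein carry cargo up and down the axoneme. In vertebrate gonads, germ cells divide by mitosis and then enter meiosis, and the flagellum is built late in sperm formation.

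Barcodes with at least 1875 counts and 250 genes, and without a doublet mark, were called cells. There were 28976 female, 38210 male and, in the larvae, 18647 and 19515 of them. The deposited matrices held 239024376 to 406358335 counts a library, and the called cells' median was 4596 to 7287.5 counts. Between 5 and 12 called barcodes were shared by any pair of libraries. The cells formed 40 clusters, of which 8 were germ cell-like, with 12 to 21 of the 33 germ cell markers found raised in them. They held 509 female, 27250 male and, in the larvae, 1165 and 1215 cells. Clusters 20 and 35, with raised germ cell markers but with most of their leading genes shared with other male clusters, were set aside as mixed (1604 male cells). The remaining cells are called other cells: 28461 female, 9356 male, 17482 and 18300 larval. They are not a single cell type, and 26 of the 40 clusters received no name. Levels are CPM, the count of a gene scaled to the total of the named features, with both summed over a cell class of 1 library, and intervals around them are exact 95% Poisson intervals that cover counting error only. In such a sum, a change in the share of cells that carry a transcript and a change in transcript per cell cannot be told apart.

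**Figure D1:**
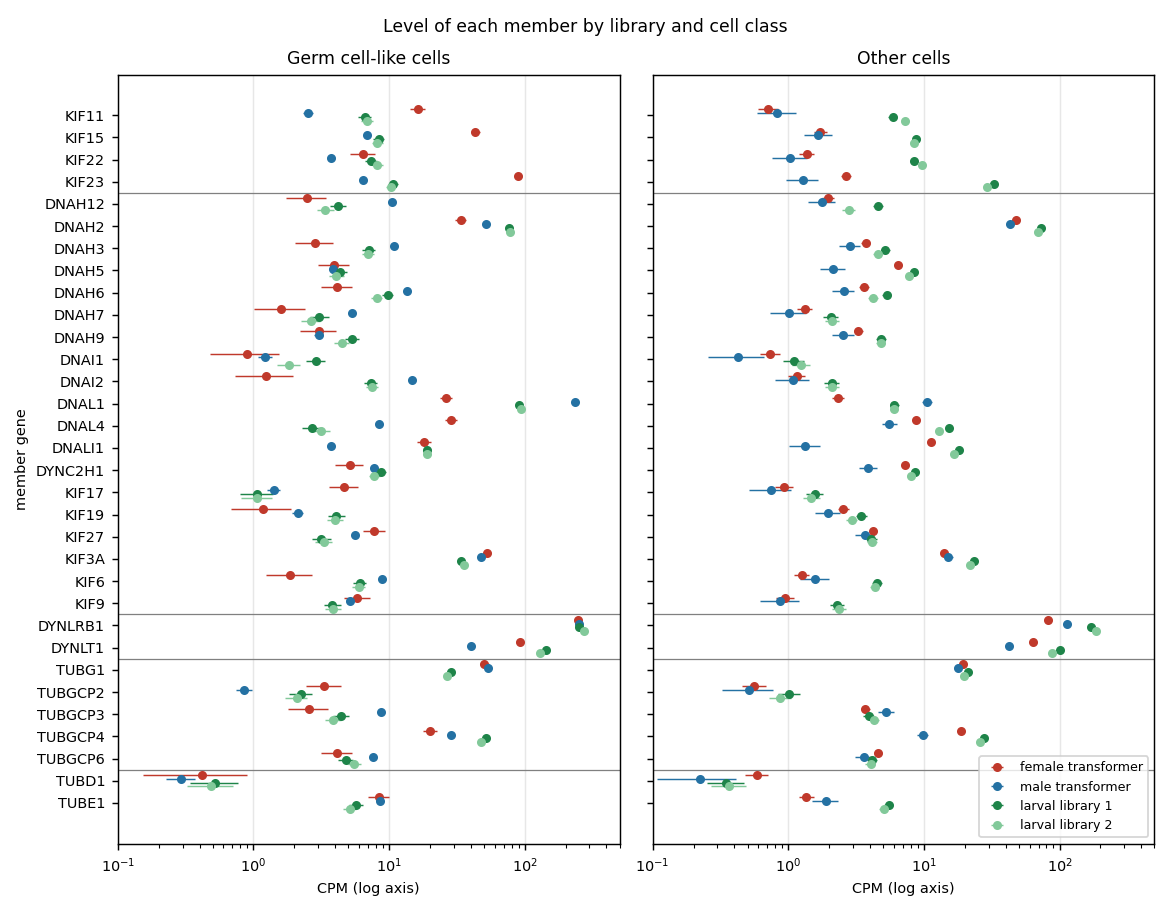
CPM of each of the 32 genes (log axis) in germ cell-like cells (left) and other cells (right) of each library, with exact 95% Poisson intervals; grey lines separate the role groups. In other cells both larval points of the 4 mitotic motors lie above both transformer points, and in germ cell-like cells DNAL1 was at 234 CPM in the male library and at 26.2 in the female library.

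In other cells, all 4 mitotic motors were lower in the transformers than in the larvae, and no other gene of the 32 passed the test. KIF23, the motor of the central spindle that is needed for cytokinesis, was at 33.0 and 29.3 CPM in larval libraries 1 and 2, at 2.67 in the female transformer and at 1.28 in the male. KIF11, which slides antiparallel microtubules apart to keep the spindle bipolar, was at 5.86 and 7.27 CPM in the larvae, 0.711 in the female transformer and 0.829 in the male. Both genes had every larval value several times above every transformer value. KIF22, a chromosome-binding kinesin that pushes chromosome arms towards the spindle equator, was at 8.41 and 9.61 CPM in the larvae, 1.37 in the female transformer and 1.03 in the male. KIF15, which supports spindle bipolarity beside KIF11, was at 8.81 and 8.41 CPM in the larvae, 1.72 in the female transformer and 1.66 in the male. In both genes each larval value was above each transformer value. How many of all features had groups apart in this way was not counted. On this CPM scale the median of the 17729 features compared in other cells was also lower in transformers. It was at log2 -0.41 for female minus larvae and -0.73 for male minus larvae.

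Fitted over all 18535 genes tested in other cells with edgeR's quasi-likelihood test and Benjamini-Hochberg adjustment, KIF23 fell by 3.44 ± 0.33 on the log2 scale (approximate SE, 2 libraries a stage, adjusted p = 0.0423). KIF11 fell by 2.53 ± 0.30 (adjusted p = 0.0465). KIF22 fell by 2.34 ± 0.19 (adjusted p = 0.038). KIF15 fell by 1.77 ± 0.19 (adjusted p = 0.0436). Of all genes tested 3.34% were called, 1.23% higher (228 genes) and 2.11% lower (391 genes) in transformers. Against that background 4 of 32 genes were called, all 4 lower and all 4 mitotic motors. At an unadjusted p under 0.05 there were 9 of the 32 genes and 27.9% of all genes. The adjusted p-values lie close to the 0.05 threshold. Without larval library 1, or without larval library 2, 0 of the 32 genes and 0 of all genes were called by edgeR (1330 and 1327 genes at an unadjusted p under 0.05), and the 4 log2 fold changes still lay between -3.50 and -1.76. At double the count minimum for a cell the 4 motors had adjusted p-values of 0.0513 to 0.0634 and log2 fold changes of -3.56 to -1.66.

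Of 23 mitosis and cell cycle genes that were found and are not among the 32, 10 were called lower in other cells of the transformers and 0 higher. Their log2 fold changes were below 0 for 21 of 23, with a median log2 fold change of -1.46 against 0.02 over all genes tested. They included UBE2C, the ubiquitin-conjugating enzyme of mitotic exit (-4.20 ± 0.30, adjusted p = 0.038 by edgeR), the kinetochore genes NUF2 (-2.97 ± 0.37, adjusted p = 0.0475) and SPC25 (-2.93 ± 0.18, adjusted p = 0.038), the kinetochore motor CENPE (-1.89 ± 0.19, adjusted p = 0.0428) and the cytokinesis gene ANLN (-2.52 ± 0.20, adjusted p = 0.038). Of 14 replication genes 2 were called lower, TYMS (-3.46 ± 0.44, adjusted p = 0.0484) and MCM5 (-1.89 ± 0.25, adjusted p = 0.0497), and the log2 fold change was below 0 for all 14. Of 11 dynein regulators 1 was called lower, SPDL1, which recruits dynein to kinetochores (-2.24 ± 0.23, adjusted p = 0.0428).

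**Figure D2:**
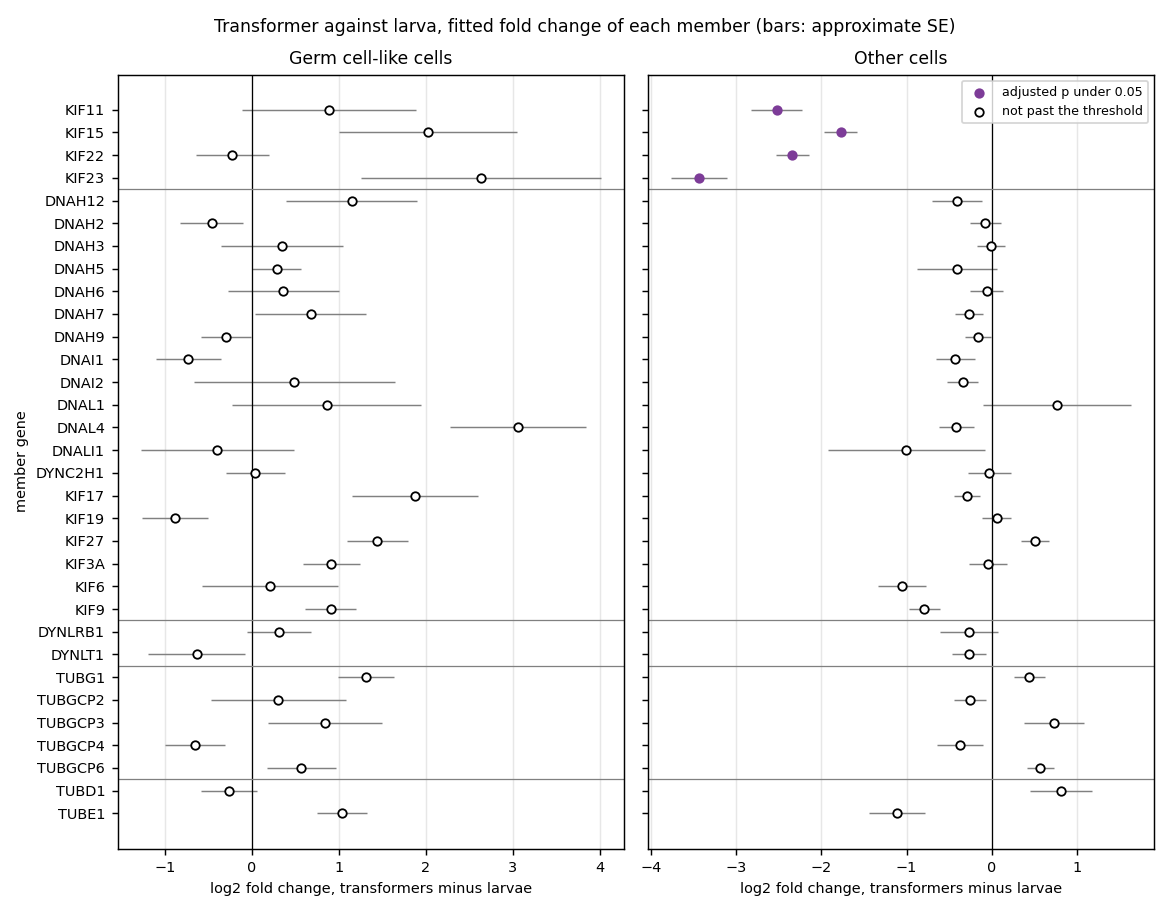
Fitted log2 fold change of each gene, transformers minus larvae, in germ cell-like cells (left) and other cells (right), with bars of 1 approximate SE; filled points have an edgeR adjusted p under 0.05. The 4 filled points are KIF11, KIF15, KIF22 and KIF23 in other cells, and none is filled in germ cell-like cells.

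Most of the larval counts of the mitotic motors in other cells lay in clusters 16 and 21. Cluster 16 was led by UBE2C and KIF23, with NUSAP1 and TYMS among its 10 leading genes. It had the 4 motors summed at 403 CPM in larval library 1 and 376 CPM in larval library 2, held 4.37% and 4.26% of the cells, and carried 48.0% and 45.3% of the library's mitotic motor counts. Cluster 21, in which UBE2C was also among the leading genes, had them at 337 and 345 CPM. These clusters held 0 female cells, and cluster 16 held 3 male cells. The division genes that separate such cells from the rest were used in clustering, so this is a description of where the counts lay. The mitosis list was at 3654 CPM in cluster 16 and 4017 in cluster 21 of larval library 1, against 594 CPM over its other cells.

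With clusters 16 and 21 left out, a choice made after their values were seen, the summed mitotic motors were at 18.5 and 18.2 CPM in the larval other cells, 6.47 in the female and 4.60 in the male. Clusters 16 and 21 were picked for the highest larval levels of these motors outside germ cell-like and mixed clusters. Leaving them out therefore had to lower the larval sums. Those clusters held 7.64% and 8.02% of the larval other cells and 70.3% and 70.0% of their mitotic motor counts. In the remaining cells KIF23 had a log2 fold change of -1.35 ± 0.36 (edgeR adjusted p = 0.117), KIF11 -1.35 ± 0.25 (0.0736), KIF15 -0.90 ± 0.18 (0.0797) and KIF22 -1.07 ± 0.19 (0.07), so that none of the 4 passed the threshold. All 4 directions were still towards lower levels in transformers, at less than 1.5 on the log2 scale.

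Free RNA, read in barcodes with 20 to 200 counts that hold no cell, also carried these motors. Larval barcodes of this kind had KIF23 at 17.8 and 15.8 CPM, female ones at 5.92 and male ones at 5.3. For KIF15 the larval levels were 9.64 and 9.26 CPM, the female level 5.44 and the male level 7.78. For KIF22 the larval levels were 10.5 and 12.2 CPM, the female level 2.91 and the male level 4.93. In other cells of both transformers all 4 motors were below the free RNA, KIF11 too, which was at 1.78 and 2.21 CPM there. In larval other cells KIF23 was above it in both libraries, KIF15 and KIF22 were below it in both, and KIF11 was at 5.86 CPM against 5.95 in library 1 and 7.27 against 6.53 in library 2. At the level of all other cells, these averages cannot tell larval KIF15 and KIF22 from free RNA. Whether some of the cells expressed them was not tested. The larval clusters left out above held 51.7% and 50.3% of the KIF15 counts of other cells in libraries 1 and 2. They held 62.8% and 62.4% of the KIF22 counts, in 7.64% and 8.02% of the cells. Both genes were lower in the free RNA of the transformers than in that of the larvae. The part of free RNA in the stage differences was not tested. After each cell was thinned to 1875 counts, KIF23 had a count in 0.457% (exact 95% interval 0.382 to 0.542) of female other cells, 0.16% (0.0898 to 0.264) of male, 3.33% (3.07 to 3.61) of larval library 1 and 3.13% (2.88 to 3.39) of larval library 2. The unthinned shares were 1.27%, 0.492%, 7.59% and 7.61%, at median depths of 4559, 3915.5, 5130 and 5555.5 counts. Over all other cells, the transformer shares of KIF23 cannot be told from background, because its levels there are below the free RNA. An average over the class can hide a small group of cells. Among female other-cell clusters the 4 motors were highest in cluster 31 (519 female cells). They summed to 30.8 CPM (24.1 to 38.9) there, against 6.47 over all female other cells.

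In germ cell-like cells the mitotic motors were highest in the female transformer. KIF23 was at 89.9 CPM there, at 6.47 in the male transformer and at 10.6 and 10.3 in the larvae. KIF15 was at 43.3 CPM in female, 6.91 in male, and 8.37 and 8.17 in larval cells. KIF11 was at 16.2 CPM in female, 2.52 in male, and 6.61 and 6.85 in larval cells. For these 3 genes the female value stood above every other library and the male value below both larvae. KIF22 did not follow that order: it was at 6.42 CPM (5.18 to 7.87) in female, 3.73 in male, and 7.38 and 8.21 in larval cells. On this CPM scale the median of the 18355 features compared in germ cell-like cells was also lower in transformers. It was at log2 -0.50 for female minus larvae and -0.39 for male minus larvae. KIF22 was at -0.27 for female minus larvae and KIF15 at -0.26 for male minus larvae, both smaller falls than that median. For both, the order of transformer and larva depends on the scale. Against the free RNA of the same library, all 4 motors were above it in the female germ cell-like cells, KIF15, KIF22 and KIF23 were below it in those of both larvae, and KIF15 and KIF22 in those of the male.

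The male germ cell-like value depends on cluster 18. This cluster of 1446 male cells, led among others by NUF2, CCNB2 and SPC25, had 17 raised germ cell markers and the 4 motors at 141 CPM, and it held 46.0% of the library's mitotic motor counts in 3.78% of its cells. Under the earlier rule for germ cell-like clusters, which set it aside as mixed, the male sum of the 4 motors was 10.6 CPM in place of 19.6. KIF23 was at 2.81 in place of 6.47 CPM, KIF15 at 3.75 in place of 6.91, KIF22 at 2.21 in place of 3.73 and KIF11 at 1.79 in place of 2.52. The rule was changed after cluster 18 was seen to lead with division genes, so the male levels of these motors should be read with both values. The female sum was 156 CPM under either rule.

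**Figure D3:**
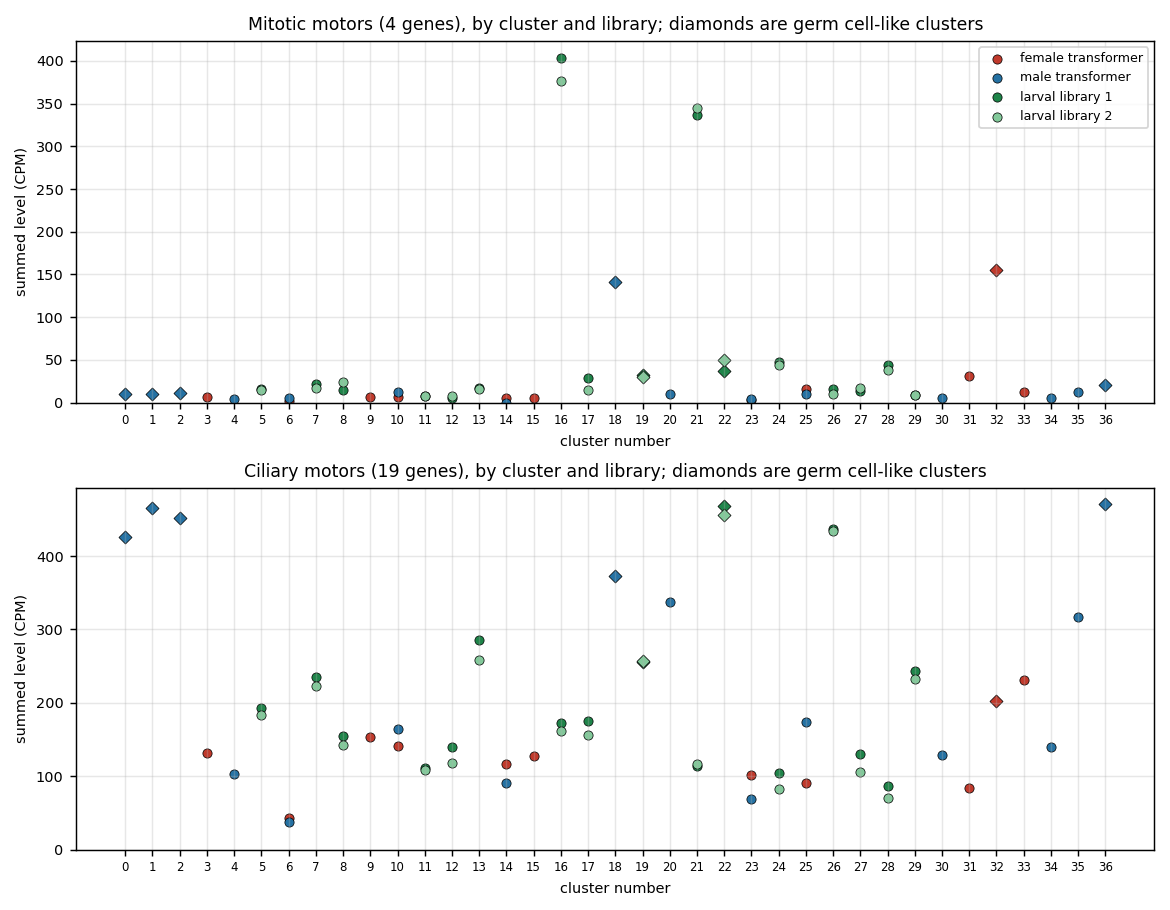
Summed CPM of the 4 mitotic motors (top) and the 19 ciliary motors (bottom) in each cluster with at least 50 cells of a library; diamonds are germ cell-like clusters and circles all others. Mitotic motors stand out in larval clusters 16 and 21, male cluster 18 and female cluster 32, while the ciliary motors are spread over many clusters.

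Within the female library the motors lay in 1 germ cell-like cluster. Cluster 32, with 502 female cells, held 65.5% of the female mitotic motor counts in 1.73% of the cells and 7.36% of all counts, with the 4 motors at 156 CPM. Its 23 mitosis and cell cycle genes summed to 5211 CPM, while its 14 replication genes summed to 511 CPM. In larval clusters 16 and 21 the replication genes were at 1624 to 2107 CPM, and in male cluster 18 at 1123 CPM. The larval germ cell-like clusters 19 and 22 had the 4 mitotic motors at 29.8 to 49.5 CPM. After thinning, 24.3% of the female cells of cluster 32 had a count of at least 1 mitotic motor, against 48.9% and 47.0% of the larval cells of cluster 16 and 21.4% of the male cells of cluster 18.

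Germ cell-like against other cells was compared within each library and has no test, because the classes come from clusters of the same cells. Summed over the 4 mitotic motors, the log2 ratio of germ cell-like to other cells was 4.59 in the female library and 2.03 in the male, but -0.76 and -0.70 in the larvae. Under the earlier rule the male ratio was 1.13. The larval sign rests on clusters 16 and 21, which were picked for their high motor levels after these were seen. Leaving them out had to raise the larval ratios, which were then 0.83 and 0.88. With all clusters kept but without KIF23 the larval ratios were -0.05 and -0.12. By gene, KIF23 had log2 ratios of 5.07, 2.33, -1.63 and -1.51 in the female, male, larval 1 and larval 2 libraries. KIF15 (4.65, 2.05, -0.07 and -0.04) and KIF11 (4.51, 1.59, 0.17 and -0.08) were near even in the larvae. KIF22 was at 2.23, 1.84, -0.19 and -0.23. Without clusters 16 and 21 the larval ratios were 0.50 and 0.65 for KIF23, 0.82 and 0.81 for KIF15, 1.25 and 1.19 for KIF11 and 1.09 and 1.02 for KIF22, all above 0. Beside them stands the median over all 17407 features compared, which was -0.01 (female), 0.53 (male), 0.10 and 0.16 (larvae).

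In the stage test on germ cell-like cells none of the 32 genes was called by edgeR, nor was any of the 18002 genes tested (0%). At an unadjusted p under 0.05 there were 5 of the 32 genes and 15.2% of all genes. DESeq2 called 650 genes, among them 1 of the 32, DNAL4 (adjusted p = 0.00929). The log2 fold change of KIF23 was 2.63 ± 1.38 (edgeR adjusted p = 0.437), that of KIF15 2.02 ± 1.02 (0.425), that of KIF11 0.89 ± 1.00 (0.688) and that of KIF22 -0.22 ± 0.42 (0.823). The transformer libraries differ in sex, and their spread enters this test. A gene that was not called here is not shown to be unchanged: on simulated counts with the fitted spread, this test did not recover changes of log2 2. Without the female library KIF23 had a log2 fold change of -0.35 and KIF11 of -1.07, the opposite sign.

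The axonemal dyneins did not share a single pattern. DNAL1, a light chain of the outer dynein arm, was the 1 gene of the 32 at least log2 1 higher in germ cell-like than in other cells of all 4 libraries, as were 6.91% of the 17407 features compared, and 0 of the 32 were lower by that measure (3.78% of features). In germ cell-like cells it was at 234 CPM in the male transformer, 90.1 and 93.5 in the larvae and 26.2 in the female. In other cells it was at 10.5 CPM in the male, 6.05 and 6.02 in the larvae and 2.32 in the female. The log2 ratios were 4.47 in the male, 3.90 and 3.95 in the larvae and 3.50 in the female, so the classes were far apart in every library. Male barcodes without cells had DNAL1 at 135 CPM, so its level in male other cells was below that of the free RNA around them. Thinned to the same depth, 33.0% (32.5 to 33.6) of male germ cell-like cells had a DNAL1 count, against 18.7% and 17.8% in the larvae and 3.73% (2.26 to 5.77) in the female, while the share in other cells was 0.369% to 1.72%. The unthinned shares in germ cell-like cells were 77.4% in the male, 66.7% and 66.3% in the larvae and 39.9% in the female.

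The outer arm intermediate chain gene DNAI2 had a like order. In germ cell-like cells it was at 14.8 CPM in the male, 7.30 and 7.49 in the larvae and 1.24 in the female (from 18 counts), and in other cells at 1.08, 2.09, 2.09 and 1.15. Its log2 ratio of germ cell-like to other cells was 3.77 in the male, 1.80 and 1.84 in the larvae and 0.15 in the female. The female value rests on cells that the earlier cluster rule set aside: under it female germ cell-like DNAI2 was at 0.484 CPM, from 7 counts, and the female ratio was -1.15. In the larvae DNAI2 was concentrated in germ cell-like cluster 22, which held 43.5% and 44.4% of its counts in 2.82% and 2.81% of the cells. Male barcodes without cells had it at 12.2 CPM. The other intermediate chain gene, DNAI1, was at 1.22 CPM in male, 0.898 in female, and 2.88 and 1.82 in larval germ cell-like cells, with 13 to 283 counts behind these values.

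DNAL4, a dynein light chain of the outer arm, went the other way in the larvae. Germ cell-like cells had 2.72 and 3.16 CPM in the larvae, 8.38 in the male and 28.5 in the female transformer. Other cells had 15.3 and 12.8 CPM in the larvae, 5.56 in the male and 8.81 in the female. The log2 ratio of germ cell-like to other cells was therefore -2.49 and -2.01 in the larvae but 0.59 in the male and 1.70 in the female, and its 4-library mean of -0.55 was the lowest of the 32 genes. Barcodes without cells had DNAL4 at 10.25 and 8.74 CPM in the larvae, 6.80 in the male and 8.43 in the female. The larval germ cell-like levels and the male other-cell level were below that free RNA and cannot be told from it. Levels of the remaining classes were above it. In female other cells, though, the interval of 8.38 to 9.25 CPM held the free RNA level, so that class cannot be told from it either. The part of free RNA in the ratios was not tested. Between the stages, germ cell-like cells had a log2 fold change of 3.06 ± 0.78 that did not pass the edgeR threshold (adjusted p = 0.285).

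**Figure D4:**
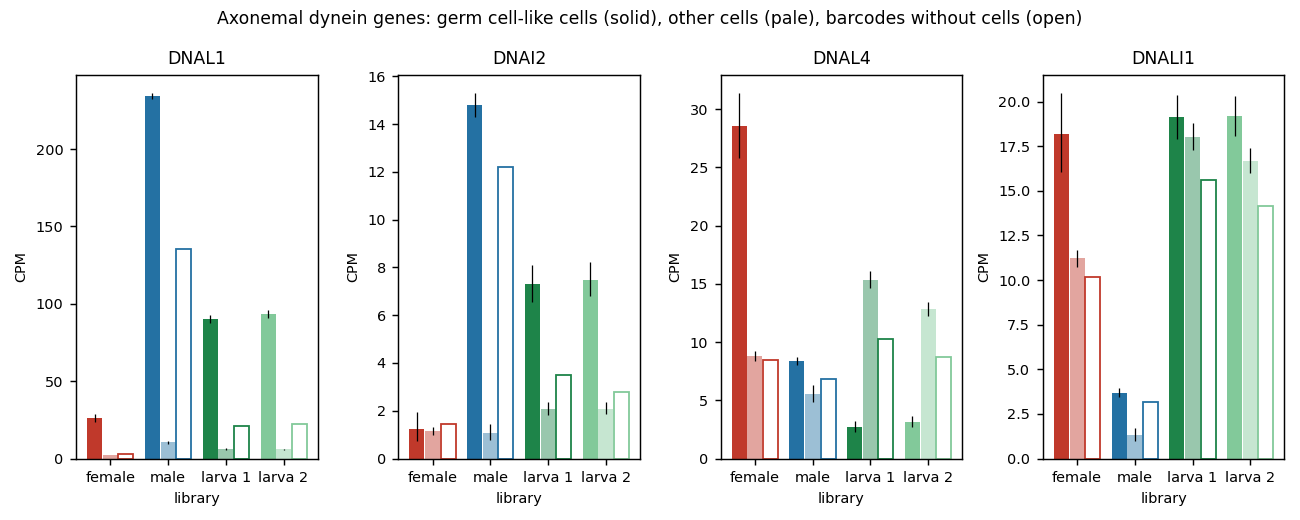
CPM of 4 axonemal dynein genes in germ cell-like cells (solid bars), other cells (pale bars) and barcodes without cells (open bars) of each library, with exact 95% Poisson intervals on the first 2. DNAL1 and DNAI2 were highest in male germ cell-like cells, DNAL4 in female germ cell-like cells, and DNALI1 was at 3.70 CPM in male and 18.2 to 19.2 CPM in the other germ cell-like cells.

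DNALI1, the light intermediate chain of inner dynein arms, was low in the male library. Germ cell-like cells had it at 18.2 CPM in the female library, 19.1 and 19.2 in the larvae and 3.70 in the male. Other cells had it at 11.2 CPM in the female library, 18.0 and 16.7 in the larvae and 1.32 in the male. Under the earlier cluster rule the male germ cell-like level was 2.48 CPM. Inside the male library 34.0% of the DNALI1 counts lay in cluster 18, at 20.04 CPM, against 2.35 to 2.63 CPM for DNALI1 in the 3 largest germ cell-like clusters. In the larvae its other-cell counts were highest in cluster 26, led by RERG and FST, at 117 and 102 CPM, and in the renal tubule-like cluster 13, at 81.8 and 73.4 CPM.

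Among the dynein heavy chains, those of the inner arms DNAH3, DNAH6, DNAH7 and DNAH12 were all higher in male germ cell-like cells than in any other class. DNAH6 was at 13.5 CPM there, 4.14 in the female, and 9.74 and 8.12 in the larvae. DNAH3 was at 10.9, 2.83, 7.08 and 7.02 CPM in the same order. DNAH12 was at 10.4, 2.49, 4.19 and 3.39 CPM. DNAH7 was at 5.32, 1.59, 3.06 and 2.64 CPM. In every one of the 4 the order was male, then larvae, then female. Male barcodes without cells carried 12.5 CPM of DNAH12 and 13.7 of DNAH6. Both levels were above those of the germ cell-like cells, which gave most of the male library's counts.

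The inner arm heavy chain gene DNAH2 was at 33.8 CPM in female and 52.2 in male germ cell-like cells, 76.8 and 77.7 in those of the larvae, and 47.7, 43.2, 73.0 and 69.9 in other cells of the 4 libraries in the same order. The mean log2 ratio between the classes was 0.00, and barcodes without cells had 48.1 to 67.8 CPM, so the levels of DNAH2 in cells and in free RNA lay in the same range. The outer arm heavy chain genes DNAH5 and DNAH9 showed no concentration in germ cell-like cells, with mean log2 ratios of -0.44 and 0.05. DNAH5 was at 6.48 CPM in female, 2.13 in male, and 8.50 and 7.79 in larval other cells. Barcodes without cells had more DNAH5, at 6.77, 4.21, 11.7 and 13.4 CPM in the same order.

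Among the kinesins of cilia, KIF3A, a subunit of the motor that drives anterograde intraflagellar transport, was higher in germ cell-like than in other cells of every library. It was at 52.5 CPM in female, 47.8 in male, and 34.0 and 35.9 in larval germ cell-like cells, against 14.2, 15.1, 23.5 and 21.9 in other cells. Free RNA held KIF3A at 17.2, 44.9, 23.5 and 26.1 CPM in the same order. Its other-cell levels were about at or below these and cannot be told from them. KIF9, a motor of the central apparatus of motile flagella, was at 5.80, 5.14, 3.81 and 3.84 CPM against 0.942, 0.874, 2.29 and 2.37. Its relative KIF6 was at 8.79 CPM in male, 1.86 in female, and 6.07 and 5.97 in larval germ cell-like cells. In other cells KIF6 was at 1.57 and 1.26 CPM in the male and female and at 4.48 and 4.33 in the larvae. Male barcodes without cells had KIF6 at 8.94 CPM, just above the male germ cell-like level. Both KIF6 (log2 fold change -1.06 ± 0.28, edgeR adjusted p = 0.115) and KIF9 (-0.79 ± 0.18, 0.0911) missed the threshold of the stage test in other cells.

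KIF17, a ciliary kinesin that works as a homodimer, was at 4.63 CPM in female, 1.42 in male, and 1.07 and 1.07 in larval germ cell-like cells, against 0.937, 0.74, 1.56 and 1.48 in other cells. KIF27 was at 7.73, 5.59, 3.17 and 3.28 CPM in germ cell-like cells and between 3.65 and 4.20 in other cells. For both genes the larvae had the lower level in germ cell-like cells and the transformers the higher one. KIF19, which trims the tips of ciliary microtubules in the mouse, was at 1.17 to 4.09 CPM in germ cell-like cells and 1.95 to 3.46 in other cells. Only in germ cell-like cells of larval library 2 was KIF19 above the free RNA, at 3.98 against 3.41 CPM. The heavy chain of intraflagellar dynein, DYNC2H1, was at 5.11 to 8.69 CPM in germ cell-like cells and 3.90 to 8.66 in other cells. Free RNA held DYNC2H1 at 8.50, 9.25, 9.12 and 8.47 CPM in the female, male, larval 1 and larval 2 libraries. Every class level of DYNC2H1 was below that of its library and cannot be told from it. In the female library 52.0% of DYNC2H1 counts lay in the renal tubule-like cluster 9, which had 17.4% of the cells and 32.4% of all counts.

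Summed over the 19 ciliary motors, germ cell-like cells had 440 CPM in the male, 294 and 294 in the larvae and 206 in the female, against 103, 194, 180 and 124 in other cells. The log2 ratio was 2.10 in the male, 0.60 and 0.71 in the larvae and 0.73 in the female. DNAL1 carried much of it, and without it the ratios were 1.16, 0.11, 0.21 and 0.56. In the stage test 0 of 19 ciliary motors were called in either class. In other cells their median log2 fold change was -0.26, with 16 of 19 below 0, against a median of 0.02 over all genes.

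By cluster, the ciliary motors were at 468 and 456 CPM in larval germ cell-like cluster 22 and at 372 to 471 in the male germ cell-like clusters. They were at 437 and 435 in larval cluster 26 and at 286 and 258 in the larval renal tubule-like cluster 13. Larval germ cell-like cluster 19 had them lower, at 256 and 257 CPM. In the female library they were at 203 CPM in germ cell-like cluster 32 and at 231 in cluster 33, which is not germ cell-like. Of the ciliated cell markers, which hold no motor, 25 of 49 were found. They summed to 527 and 498 CPM in cluster 22 and 525 and 494 in cluster 26, with 0 of the 25 at 0, and to 354 to 465 CPM in male germ cell-like clusters 1, 2, 18 and 36. No cluster had enough of these markers raised to be called ciliated. The most was 11, in cluster 22, while cluster 26 had 2. In cluster 26, besides DNALI1, DNAL1 was at 82.9 and 78.6 CPM, DNAI2 at 28.0 and 25.8 and KIF6 at 19.0 and 15.7. In other cells of the larvae as a whole, for comparison, DNAL1 was at 6.05 and 6.02 CPM, DNAI2 at 2.09 in both and KIF6 at 4.48 and 4.33.

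Between the sexes, germ cell-like cells of the female library had the mitotic motors at a log2 ratio of 2.99 over those of the male, and of 3.88 under the earlier rule, and the ciliary motors at -1.10. Without DNAL1 the latter was -0.20. The larval libraries differed by less than 0.05 in both sums. By gene the female was highest over the male for KIF23 (log2 3.80, counting interval 3.69 to 3.90), KIF11 (2.69), KIF15 (2.65), DNALI1 (2.30) and TUBGCP2 (1.97), and lowest for DNAI2 (-3.53, -4.33 to -2.91, and -4.84 under the earlier rule), DNAL1 (-3.16), KIF6 (-2.21), DNAH12 (-2.05) and DNAH3 (-1.93). Of the 32 genes 8 were at least log2 1 higher in the female and 8 at least log2 1 lower, where 18.9% and 24.8% of 18355 features were. The count of 8 in each direction is 25% of the genes, close to the background. Under the earlier rule KIF23 was at 5.0, KIF15 at 3.52, KIF11 at 3.19, DNALI1 at 2.83 and KIF22 at 1.55 in place of 0.79, and 9 genes were at least log2 1 higher in the female and 8 lower.

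In other cells the female library had DNALI1 (log2 3.07, 2.71 to 3.48), DNAH5 (1.60), TUBD1 (1.32, from 106 and 10 counts) and KIF23 (1.05) at least log2 1 above the male, 4 of 32 genes where 18.7% of features were. The other cells of the 2 libraries differ in make-up. The renal tubule-like cluster 9 held 5039 female and 0 male cells and gave 32.4% of the counts of the female cells. The part of this make-up in the differences was not tested. DNALI1 was at 1.32 CPM in male other cells against 3.16 in the free RNA, and at 11.2 against 10.2 in the female. KIF23 and DNAH5 were both below the free RNA in each of the 2 libraries. DNAH5 was at 6.48 against 6.77 CPM in the female and 2.13 against 4.21 in the male. At the level of all other cells, the differences of KIF23 and DNAH5 cannot be told from ones of free RNA. The part of free RNA in them was not tested. With TMM factors KIF23 was at 0.77, which left 3 genes at least log2 1 higher. DNAL1 was lower by that measure (-2.18), 1 of 32 where 4.49% of features were, and its male level there stood below the free RNA. The next were TUBGCP4 on the higher side (0.93) and TUBGCP3 (-0.52), TUBE1 (-0.47), DYNLRB1 (-0.46) and KIF6 (-0.33) on the lower. Of these, TUBGCP4 and KIF6 were below the free RNA in both libraries, TUBGCP4 at 18.7 against 19.2 and 9.79 against 21.8 CPM. The sum of the ciliary motors was at a log2 ratio of 0.27, which became -0.017 with TMM factors, so no direction is given for it.

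The cytoplasmic dynein light chains were read in both cell classes of every library. Unthinned, DYNLRB1 had a count in 35.4% to 57.7% of other cells and 79.9% to 86.2% of germ cell-like cells. DYNLRB1, the roadblock light chain, was at 247, 249, 252 and 271 CPM in female, male, larval 1 and larval 2 germ cell-like cells, a narrow range on this CPM scale, and at 81.8, 113, 170 and 187 CPM in other cells. With TMM factors its fitted log2 fold change between the stages was 0.32 ± 0.37 in germ cell-like cells. DYNLT1, a Tctex-type light chain, was at 91.6, 39.8, 143 and 128 CPM in germ cell-like cells and at 63.9, 42.6, 101 and 88.0 in other cells, lowest in the male library in both. Neither passed the stage test (edgeR adjusted p of 0.441 to 0.698).

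TUBG1, the gamma tubulin that nucleates microtubules at centrosomes and spindle poles, was at 50.3 and 53.8 CPM in female and male germ cell-like cells and at 28.4 and 26.6 in those of the larvae, with 17.8 to 21.2 in other cells. Free RNA held it at 19.6, 48.7, 23.3 and 21.4 CPM in the female, male, larval 1 and larval 2 libraries. Each other-cell level of TUBG1 was below that of its library. At the level of all other cells, TUBG1 cannot be told from free RNA. Its stage difference in germ cell-like cells was 1.31 ± 0.32 on the log2 scale (edgeR adjusted p = 0.28). Among the ring complex genes, TUBGCP4 was at 51.8 and 48.0 CPM in larval, 28.5 in male and 20.03 in female germ cell-like cells. TUBGCP3 was at 8.73 CPM in male, 2.55 in female, and 4.40 and 3.84 in larval germ cell-like cells, TUBGCP6 at 4.14 to 7.55 and TUBGCP2 at 0.856 to 3.32. TUBE1, the epsilon tubulin of centrioles, was at 8.43, 8.53, 5.73 and 5.12 CPM in germ cell-like cells, and at 1.36 and 1.88 in other cells of the female and male against 5.50 and 5.05 in the larvae (edgeR adjusted p = 0.134). TUBD1, delta tubulin, was at 0.224 to 0.584 CPM in either class, from 6 to 106 counts.

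Other genes of the pathway were taken from lists. In other cells the stage test by edgeR called 0 of 20 intraflagellar transport genes, 0 of 33 axoneme and assembly genes and 0 of 18 tubulin folding and modification genes. It also called 0 of 4 kinesin partners and 0 of 5 microtubule regulators. At an unadjusted p under 0.05 there were 4, 9, 3, 1 and 1 of them in the same order. Over all genes tested in other cells, 3.34% were called and 27.9% had an unadjusted p under 0.05. The axoneme list summed to 596 and 579 CPM in larval, 499 in male and 237 in female germ cell-like cells, against 186, 163, 110 and 102 in other cells. In the male library 19 of its 33 genes were at least log2 1 higher in germ cell-like than in other cells, as were 31.9% of all features compared. In the female library 13 were, against 22.5%, and in the larvae 11 and 12, against 17.5% and 18.9%. The mitosis and cell cycle list had 19 of 23 genes at least log2 1 higher in germ cell-like cells of the female, 17 in those of the male, and 4 in those of each larval library.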

How the data were processed

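Single-cell 3′ libraries of sea lamprey gonads were measured in 4 samples. The deposited matrices hold whole-number counts per gene and barcode, per the file headers, with no normalization seen in the values; whether a count is a molecule or a read, and the aligner, build and annotation, are not given in the sources used here. Barcodes were not filtered before deposit. From these, 24 features without a gene name were left out, and cells needed 1875 counts (5 times the largest background of 375), 250 genes and at most 20% of counts from 13 mitochondrial genes. Scrublet's own threshold marked under 0.5% of cells, so cells from the 95th percentile of its scores upwards were removed. Clusters came from scanpy 1.11.5 (1987 variable genes without the 32 genes, leidenalg 0.10.2, resolution 1). No sequences or coordinates are given.

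Clusters were named germ cell-like with 10 or more raised germ cell markers, and mixed if 7 or more of the 10 leading genes were among the 50 leading genes of other clusters with at least 50 cells of the same library. This rule was changed 3 times after clusters and their leading genes were seen. The first version needed 3 markers and let a cluster of any library make another mixed; its values are given for the 6 of 128 gene and library levels in germ cell-like cells that it moved by over 1.2 times. The genes, lists and named genes were chosen with earlier results of these data known. Named are all called genes, the 8 highest and 5 lowest between classes, the 5 highest and lowest between sexes, and every motor with at least 20 counts.

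Counts were summed per library and class. Log2 ratios had 0.5 added to each count. Larval and transformer libraries were compared with edgeR 4.0.16 in R 4.3.3 (TMM, filterByExpr, robust quasi-likelihood test, two-sided, Benjamini-Hochberg over all genes); an SE is the log2 fold change over the square root of F. DESeq2 1.42.0 was an alternative. The test was tested on simulated data with changes of log2 2, most of which it recovered in other cells and none in germ cell-like cells. P-values measure the spread between these 4 libraries.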

Additional observations from a re-analysis of the deposited data

Results flagged for a closer look

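In 5 of the 32 genes the log2 ratio of germ cell-like to other cells was above 0 in both transformer libraries and below 0 in both larval libraries, with counting intervals clear of 0 in all 4. The difference was not tested. The share of all features that met the same rule was not counted, so the 5 genes have no background beside them. The mean transformer ratio minus the mean larval ratio was 5.27 for KIF23, 3.40 for DNAL4, 2.24 for KIF22, 2.12 for KIF17 and 1.09 for KIF27. Clusters 16 and 21 were picked for their high larval levels of mitotic motors after these were seen. Without them the larval ratios turned to 0.50 and 0.65 for KIF23 and to 1.09 and 1.02 for KIF22. Both genes were then above 0 in all 4 libraries. DNAL4, KIF17 and KIF27 stayed below 0 in both larvae. In larval germ cell-like cells DNAL4, at 2.72 and 3.16 CPM, was below the free RNA, at 10.25 and 8.74 CPM. The groups share no library, and each holds 2.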

How the results depend on the processing

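The stage test in other cells called 4 of the 32 genes, and also 4 with RLE factors, no filter on low counts, doublets kept, the 32 genes allowed in clustering, Leiden resolution 2 and the earlier cluster rule, and 5 with DESeq2. It called 7 with no factors, which moved the median of all genes to -0.53, and 0 at double the count minimum or without clusters 16 and 21. Leaving out 1 library gave 0 to 18. Over all genes the count of 619 became 1237 with no factors, 3049 with DESeq2, 91 at double the count minimum, 1144 at resolution 2, 374 without clusters 16 and 21, and 0 to 10455 when 1 library was left out; without a transformer only the larval pair gives the spread, and without a larval library the lone larva is assumed to vary like the transformer pair. In germ cell-like cells DESeq2 called 1 of the 32 and 650 genes, and leaving out 1 library gave 0 to 26 and 0 to 12111; all other settings gave 0. There, leaving out 1 library gave log2 fold changes of -0.35 to 3.54 for KIF23, -1.07 to 1.71 for KIF11 and -1.37 to 1.70 for DNAL1. The female minus male log2 ratio of mitotic motors in germ cell-like cells (2.99) was 2.33 without KIF23, 2.67 as the median of the genes and 3.88 under the earlier rule. The germ cell-like against other ratio of mitotic motors in the larvae (-0.76 and -0.70) was 0.83 and 0.88 without clusters 16 and 21. The female minus male ratio of mitotic motors in other cells (0.43) was 0.15 with TMM factors and 0.11 without KIF23. For ciliary motors in germ cell-like cells (-1.10) it was -1.05 with totals free of dominant features, -0.20 without DNAL1 and -0.60 as the median; in other cells (0.27) it was -0.017 with TMM factors, 0.17 with totals free of dominant features, 0.40 without DNAL1, 0.37 as the median, 0.32 at double the count minimum and 0.32 at resolution 2. The cause of these shifts was not tested. No paired analysis was possible because the labels pair no larval library with a transformer library. The number of libraries, and for genes under about 20 counts the depth, limits what could be seen.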
